A study of Homo sapiens with 9 samples.

Results

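The 10 genes described here encode digestive enzymes and structural proteins by which absorptive intestinal cells (enterocytes) are commonly recognised: SI, MGAM, ALPI, DPP4, ANPEP, MEP1A, VIL1, EZR, CDH17 and CDHR5. They were taken by symbol from the deposited table of 60591 symbols, in which each of the 10 has 1 row. Their messenger RNA was measured in undifferentiated Caco-2 (uCaco-2), proliferating cells of a human colon adenocarcinoma line that were treated before confluence and so before the differentiation for which this line is used. The medium held 300 μM CoCl2, 5 μM of the oxyquinoline derivative 4896-3212 (OD) or neither agent (control) for 24 h, with 0.5% DMSO in all 3 conditions and 3 libraries per condition. CoCl2 and OD are both activators of hypoxia-inducible factor (HIF) signalling, and the study asked how intestinal cells respond to this chemical imitation of hypoxia. All cells came from 1 cell line, so the libraries show the spread between cultures of that line only.

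The apical face of an enterocyte is a brush border of packed microvilli. Each microvillus holds a core of actin filaments bundled by villin (VIL1) and its relatives, ezrin (EZR) ties the core to the membrane, and protocadherins such as CDHR5 link the tips of neighbouring microvilli. Hydrolases at this surface carry out the last steps of digestion. Sucrase-isomaltase (SI) and maltase-glucoamylase (MGAM) split sugars and starch fragments. Aminopeptidase N (ANPEP), dipeptidyl peptidase 4 (DPP4) and meprin A (MEP1A encodes its alpha subunit) cut peptides. Intestinal alkaline phosphatase (ALPI) removes phosphate, also from bacterial lipopolysaccharide. CDH17, the liver-intestine cadherin, joins neighbouring cells at their lateral membranes. Caco-2 cells are known for building a brush border and making these enzymes once they are left confluent for weeks.

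A RefSeq promoter sequence (GRCh38.p14) was matched for 6 of the 10 genes: SI, MGAM, ALPI, DPP4, ANPEP and EZR. The 250 bases before the transcription start were searched on both strands for letters of sites of intestinal and hypoxia factors. These were TTTATG (a site of CDX factors), AGATAA as well as TGATAA (sites of GATA factors), and ACGTG as well as GCGTG (the core of HIF sites). Part of the searched stretch is shown for SI, ALPI and DPP4, which held a match, and for MGAM, which shares a run of 14 bases with SI. The stretches run 5′ to 3′ on the strand of the gene and clear of exons of that gene, with the matched letters (on either strand) and the shared run in capitals. SI is shown at chr3:165078547-165078746 (minus strand), MGAM at chr7:141995629-141995828 (plus strand), ALPI at chr2:232455903-232456102 (plus strand) and DPP4 at chr2:162074406-162074465 (minus strand).
SI: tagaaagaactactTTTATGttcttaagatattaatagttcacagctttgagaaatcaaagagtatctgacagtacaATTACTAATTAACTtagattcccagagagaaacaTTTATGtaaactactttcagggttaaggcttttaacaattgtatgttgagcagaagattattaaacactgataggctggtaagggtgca
MGAM: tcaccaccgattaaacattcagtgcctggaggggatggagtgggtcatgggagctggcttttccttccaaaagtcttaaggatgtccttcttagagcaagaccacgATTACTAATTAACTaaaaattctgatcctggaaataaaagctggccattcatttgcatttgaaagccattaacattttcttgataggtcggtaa
ALPI: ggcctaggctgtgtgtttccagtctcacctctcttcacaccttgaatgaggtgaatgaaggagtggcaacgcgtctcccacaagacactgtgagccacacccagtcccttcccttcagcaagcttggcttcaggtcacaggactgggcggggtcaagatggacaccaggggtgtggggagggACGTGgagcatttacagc
DPP4: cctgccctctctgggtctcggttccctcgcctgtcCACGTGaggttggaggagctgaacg

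SI and MGAM, the related disaccharidase genes, carry the 14-base run ATTACTAATTAACT on the same strand, at -173 to -160 counted from the start in SI and at -144 to -131 in MGAM. It was picked as the longest run that any 2 of the 6 sequences share. The 2 of 35116 promoters of the same length that hold it are those of SI and MGAM themselves. The MGAM stretch lies inside the span that GENCODE gives for the gene, so the RefSeq start used here differs from the start of that span. SI had 3 matches to TTTATG (9.64% of promoters), the last of them nearer the start than the stretch shown. ACGTG (18.5% of promoters) occurred once in ALPI, and in DPP4 on both strands at overlapping positions, where the letters form CACGTG. The letters AGATAA (in 9.17% of promoters), TGATAA (in 6.66%) and GCGTG (in 32.2%) matched in none of the 6. MGAM, ANPEP and EZR held no match to any of the letters searched. Other spellings of the sites of these factors were not searched, so a lack of matches does not mean a lack of sites. These matches describe the sequence only.

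The 10 genes lie on 7 different chromosomes of GRCh38 (GENCODE release 44), and all are protein-coding. The disaccharidase SI lies on the minus strand (chr3:164978898-165078496) and MGAM on the plus strand (chr7:141907813-142106747). ALPI (chr2:232456125-232460753, plus strand), VIL1 (chr2:218419121-218453295, plus strand) and DPP4 (chr2:161992245-162074394, minus strand) share a chromosome, as do MEP1A (chr6:46793389-46839778, plus strand) and EZR (chr6:158765741-158819368, minus strand). ANPEP (chr15:89784895-89815401), CDH17 (chr8:94127162-94217303) and CDHR5 (chr11:616577-626078) are on minus strands.

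Library totals ran from 15998136 to 18298190 counts in control cells, from 16286502 to 24209427 with CoCl2 and from 16387054 to 19623776 with OD. In the CoCl2 libraries 21.7% to 22.3% of all counts fell on the 50 most abundant genes, against 15.7% to 16.2% elsewhere, and edgeR's TMM factors, which correct for such shifts, were 0.770 to 0.795 there and 1.11 to 1.15 elsewhere. Levels are given in CPM, which is a gene's count as a share of its library's total, scaled up and corrected by the TMM factor. The cells carried epithelial markers in all 9 libraries, with the summed level of 7 such genes at 10135 to 10676 CPM in control, 12721 to 13636 in CoCl2 and 9623 to 10157 in OD libraries. Most of this sum was keratin, with KRT8 at 4976, KRT18 at 2863 and KRT19 at 854 CPM in control cells, beside CDH1 at 984 and EPCAM at 751. KRT20 had 4.49 CPM and LGALS4 0.336 in control cells, and KRT20 was downregulated with CoCl2, to 1.74 CPM. In the same order of conditions, 7 stem cell markers summed to 329 to 349, 260 to 264 and 252 to 261 CPM. For 11 secretory markers the sums were 51.0 to 56.0, 63.9 to 69.0 and 53.4 to 59.2. Stem and secretory cells are epithelial too, and 6 of the 7 and 4 of the 11 reached 1 CPM in control cells. The sums depend on the genes listed and do not rank cell types. For 12 non-epithelial markers they were 25.7 to 29.7, 21.1 to 23.9 and 34.9 to 36.5, and PTPRC, COL1A2, DCN and ACTA2 had no count in control cells. COL1A1 (14.4 CPM), COL3A1 (5.13), PDGFRB (4.78) and PECAM1 (2.35) were the non-epithelial markers at 1 CPM or more in control cells, and all 12 had a count in the CoCl2 and in the OD libraries. The part of these markers in the results was not tested.

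All 10 genes were detected in every library, but at levels that spanned more than 3 orders of magnitude per length of the canonical transcript. In control cells the microvillus and junction genes stood highest, with EZR at 201 CPM per kb, CDH17 at 107 and VIL1 at 94.1, followed by DPP4 at 81.1. CDHR5 followed at 10.9, MEP1A at 2.74 and ALPI at 2.27, and the last 2 overlapped between libraries. The disaccharidases and aminopeptidase N closed the order, with ANPEP at 0.516, SI at 0.173 and MGAM at 0.0523 CPM per kb, or 29 to 41, 19 to 21 and 6 to 13 counts per control library. Every hydrolase except DPP4 was thus below the 4 structural genes per length.

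**Figure D1:**
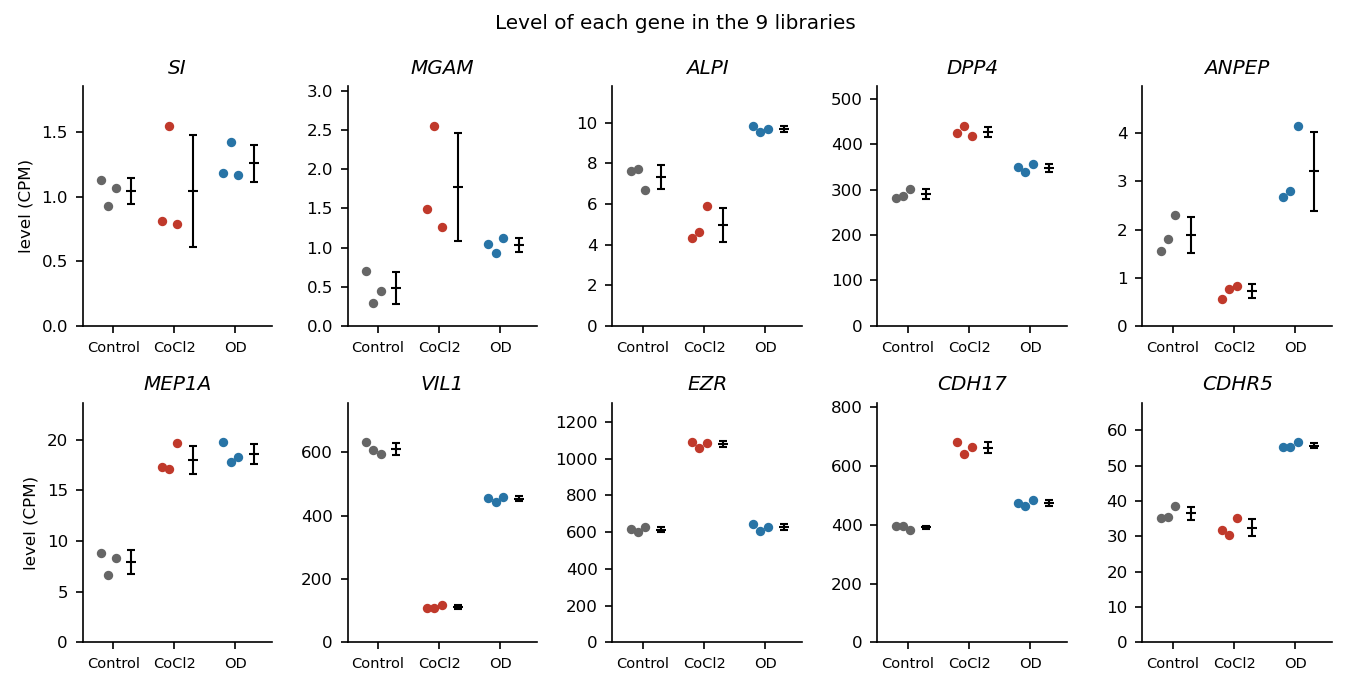
Level of each gene in CPM (y axis, linear and starting at 0 in each panel, with its own scale) in the 3 control, 3 CoCl2 and 3 OD libraries (points), with the mean ± SD of each condition beside them. VIL1 was lower in all 3 CoCl2 libraries (108 to 119 CPM) than in any control library (596 to 632), and EZR was higher (1059 to 1087 against 598 to 627).

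The order per kb changed with CoCl2 at its upper end. VIL1 came below DPP4, with EZR at 353, CDH17 at 181, DPP4 at 120 and VIL1 at 17.2 CPM per kb, and CDHR5 (9.66), MEP1A (6.23) and ALPI (1.53) followed without overlap. At the lower end ANPEP (0.197), MGAM (0.193) and SI (0.174) overlapped between libraries with CoCl2. With OD the order was EZR (205), CDH17 (129), DPP4 (97.5), VIL1 (69.8), CDHR5 (16.6), MEP1A (6.43), ALPI (2.99), ANPEP (0.875), SI (0.209) and MGAM (0.112), with no overlap between neighbours. Per kb of coding sequence, which avoids the long untranslated end of the canonical VIL1 transcript (6500 bases, 2484 of them coding), VIL1 held place 2 in control, 4 in CoCl2 and 3 in OD libraries.

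The first comparison asked what CoCl2 did to these genes. By the quasi-likelihood test of edgeR, adjusted by Benjamini-Hochberg over 15944 tested genes, 2 of the 10 were downregulated, VIL1 and ANPEP, where 23.4% of all tested genes were, and 2 were upregulated, MEP1A and MGAM, where 19.9% were. A gene counted as up- or downregulated where its adjusted p was under 0.05 and its log2 fold change lay beyond 1 in either direction. At the adjusted p alone, 4 were lower (VIL1, ANPEP, ALPI and CDHR5; 42.8% of all tested genes) and 5 higher (MEP1A, MGAM, EZR, CDH17 and DPP4; 40.4%), so the share of genes that moved was near that of all genes. The median log2 fold change of the 10 was 0.26, against -0.049 over all tested genes, and the median size was 0.79 against 0.86. The CoCl2 and control libraries did not overlap for the same 4 lower genes (42.9% of all tested genes) and 5 higher genes (40.5%).

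VIL1 showed the largest difference in size of the 10 in this comparison. It had 632, 608 and 596 CPM in the control libraries, 109, 108 and 119 with CoCl2, and 457, 445 and 459 with OD. The 3 conditions did not overlap, with OD between control and CoCl2. Its log2 fold change with CoCl2 was -2.45 (SE 0.044, adjusted p = 1.24e-51), a level 5.45-fold lower, at 1397 to 2277 counts per library. In such bulk samples, fewer cells that express a gene and less RNA per cell cannot be told apart. By the annotation, 44.2% of the exonic bases of VIL1 overlap USP37 on the opposite strand, and the libraries were made with a kit that keeps the strand (TruSeq Stranded mRNA), but whether the counting used it is not given in the sources used here. USP37 had 39.8 ± 2.93 CPM with CoCl2 and 37.6 ± 1.59 with OD, against 25.7 ± 0.812 in control cells (SD, n = 3), higher in both treated groups where VIL1 was lower, and its part in the counts of VIL1 was not tested.

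Among the peptidases, ANPEP went down and MEP1A went up with CoCl2. ANPEP had 1.56, 1.81 and 2.30 CPM in the control libraries and 0.56, 0.77 and 0.84 with CoCl2, without overlap, on only 9 to 16 counts per CoCl2 library. Its log2 fold change was -1.36 (SE 0.284, adjusted p = 1.64e-05). Only 2 of 3 CoCl2 libraries were above the expression filter, so ANPEP passed through other libraries and a lower value was favoured by the filter. MEP1A rose from 8.86, 6.66 and 8.29 CPM to 17.3, 17.2 and 19.6, a log2 fold change of 1.20 (SE 0.097, adjusted p = 1.19e-17), but only 0.69, below the threshold, when library size alone set the scale. DPP4, the most abundant hydrolase of the set, was higher at 425, 440 and 419 CPM than the control libraries at 281, 286 and 302, by a log2 fold change of 0.56 (adjusted p = 4.34e-20) that was 0.057 with library size only (adjusted p = 0.168).

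The disaccharidases differed from each other. MGAM had 0.70, 0.29 and 0.45 CPM in the control libraries and 1.49, 2.55 and 1.26 with CoCl2, which is 6 to 13 against 24 to 33 counts. All CoCl2 libraries were above the control libraries, with a log2 fold change of 1.82 (SE 0.327, adjusted p = 1.01e-06). MGAM passed the expression filter through the treated libraries, as only 1 of 3 control libraries was above it, so a difference was favoured by the filter itself. SI had 1.13, 0.93 and 1.06 CPM in control cells and 0.81, 1.55 and 0.79 with CoCl2, with overlap, and the interval of its log2 difference reached from -0.65 to 0.55, so a change of that size was not detectable at 13 to 20 counts per CoCl2 library. ALPI was lower with CoCl2 at 4.35, 4.64 and 5.92 CPM than the control libraries at 7.63, 7.73 and 6.67, a log2 fold change of -0.55 (SE 0.127, adjusted p = 8.89e-05), or -1.05 with library size only, which is past the threshold.

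The other structural genes were not called with CoCl2, but the adjusted p set all of them apart from control cells. EZR had 616, 598 and 627 CPM in the control libraries and 1087, 1059 and 1085 with CoCl2, a log2 fold change of 0.81 (SE 0.039, adjusted p = 9.46e-29). CDH17 had 395, 394 and 384 CPM against 680, 642 and 666, a log2 fold change of 0.76 (SE 0.039, adjusted p = 4.18e-27). Neither overlapped, and both stayed higher with library size only, at 0.31 and 0.26. CDHR5 had 35.2, 35.6 and 38.6 CPM against 31.9, 30.4 and 35.1 with CoCl2, a small difference of -0.16 (adjusted p = 0.0186) whose closest libraries were almost level. That difference did not pass the adjusted p with RLE factors (-0.11, adjusted p = 0.102), with DESeq2 on 9 or 6 libraries (adjusted p = 0.0903 and 0.0804), or without control replicate 3, CoCl2 replicate 1 or CoCl2 replicate 2 (adjusted p = 0.0987, 0.0753 and 0.126), and it was -0.67 with library size only.

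**Figure D2:**
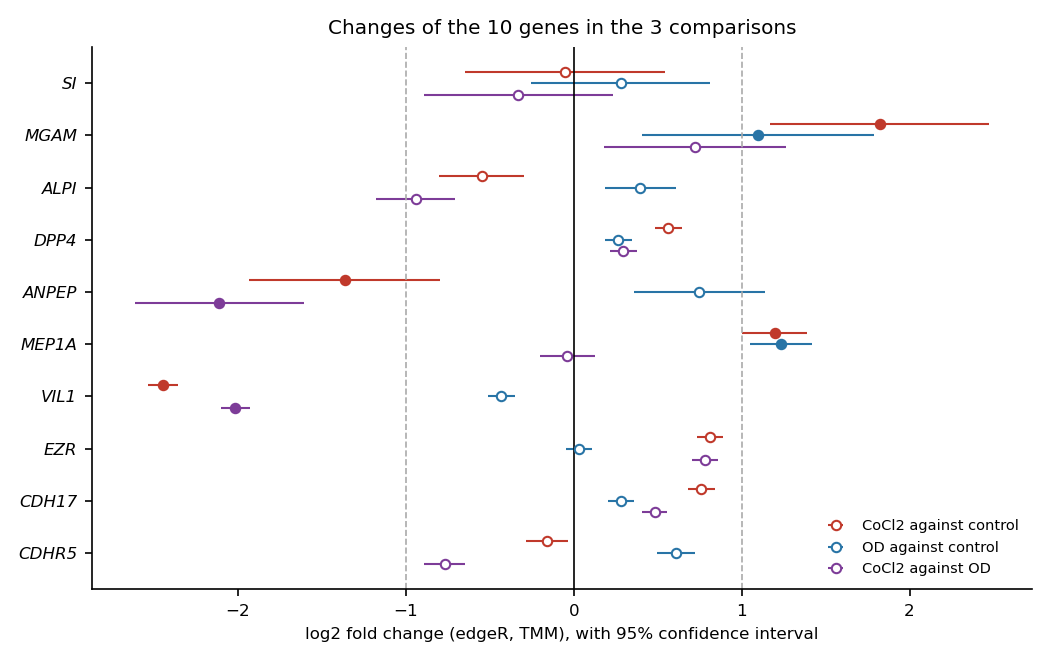
Log2 fold change of each gene (x axis) in the 3 comparisons, with 95% confidence intervals from edgeR, where filled points passed both thresholds and dashed lines mark a log2 fold change of 1 in either direction. VIL1 and ANPEP lie at -2.45 and -1.36 for CoCl2 against control and at -2.02 and -2.11 for CoCl2 against OD, and MEP1A lies at 1.20 and 1.23 with the 2 treatments.

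OD changed fewer of these genes past the fold threshold, and mostly upward at the adjusted p. MEP1A and MGAM were upregulated (2 of 10, where 9.09% of all tested genes were) and none was downregulated (4.16%). As with CoCl2, the rise of MGAM was favoured by the expression filter, which this gene passed through treated libraries. At the adjusted p alone, 7 were higher, MEP1A, MGAM, ANPEP, CDHR5, ALPI, CDH17 and DPP4 (32.3% of all tested genes), and VIL1 was lower (33.3%). The median log2 fold change of the 10 was 0.34, against -0.010 over all tested genes, and the median size was 0.41 against 0.38. The OD and control libraries did not overlap for 8 higher genes, these 7 and SI (33.7% of all tested genes), and for VIL1 (34.3%). The comparison uses the same control libraries as that of CoCl2, so the 2 are not independent.

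MEP1A had 19.7, 17.8 and 18.3 CPM with OD, about the level seen with CoCl2 and above all control libraries, with a log2 fold change of 1.23 (SE 0.093, adjusted p = 1.68e-18). MGAM had 1.04, 0.93 and 1.12 CPM, or 21 to 23 counts, and a log2 fold change of 1.10 (SE 0.345, adjusted p = 0.00426). That call rested on few counts: without control replicate 2 the log2 fold change was 0.82 (adjusted p = 0.0514), and with DESeq2 on the 6 libraries it was 1.12 (adjusted p = 0.0569). ANPEP had 2.68, 2.79 and 4.15 CPM, above every control library, with a log2 fold change of 0.75 (SE 0.194, adjusted p = 6.08e-04). ALPI stood at 9.84, 9.53 and 9.68 CPM, also above every control library, with 0.40 (SE 0.105, adjusted p = 8.29e-04).

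CDHR5 was the structural gene that was highest relative to control with OD, at 55.3, 55.1 and 56.5 CPM, a log2 fold change of 0.61 (SE 0.058, adjusted p = 1.51e-14). DPP4 with 350, 339 and 357 CPM and CDH17 with 474, 465 and 485 CPM were each above all control libraries, by 0.27 (adjusted p = 3.51e-08) and 0.28 (adjusted p = 4.46e-09) on the log2 scale. VIL1 was the gene lower with OD, by a log2 fold change of -0.43 (SE 0.040, adjusted p = 5.56e-15). EZR at 644, 608 and 628 CPM overlapped with control cells, and the interval of its log2 difference was -0.05 to 0.11. SI had 1.18, 1.42 and 1.17 CPM, above the control libraries but on 22 to 32 counts, with a log2 fold change of 0.28 that did not pass (adjusted p = 0.364, interval -0.25 to 0.81).

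The direct comparison of CoCl2 with OD tested which genes responded differently to the 2 agents. VIL1 and ANPEP were lower with CoCl2 past both thresholds (2 of 10, where 23.8% of all tested genes were), with log2 differences of -2.02 (SE 0.044, adjusted p = 5.70e-47) and -2.11 (SE 0.252, adjusted p = 2.09e-11), and none of the 10 was higher past them (17.5%). ANPEP, for which the filter again favoured a lower value with CoCl2, thus had opposite positions relative to control. It had 0.72 ± 0.146 CPM with CoCl2 and 3.20 ± 0.818 with OD, around 1.89 ± 0.375 in control cells (SD, n = 3). ALPI showed the same order, 4.97 ± 0.835, 9.68 ± 0.156 and 7.34 ± 0.589 CPM, with a difference of -0.94 between the agents (SE 0.119, adjusted p = 1.19e-10) that passed the fold threshold with library size only (-1.49), with upper-quartile factors (-1.07), without a count filter (-1.01) and without CoCl2 replicate 3 (-1.11). CDHR5 was lower with CoCl2 as well, at 32.5 ± 2.38 against 55.6 ± 0.762 CPM, a log2 difference of -0.77 (adjusted p = 2.00e-18), or -1.32 with library size only.

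EZR was higher with CoCl2 than with OD by 0.78 (adjusted p = 6.44e-28) under TMM and by 0.24 with library size only. CDH17 and DPP4 were higher with CoCl2 by 0.48 (adjusted p = 7.26e-18) and 0.30 (adjusted p = 8.93e-10), but with library size only these differences turned to -0.065 and -0.25. MGAM was higher with CoCl2 by 0.72 (SE 0.271, adjusted p = 0.0125). This was 0.18 with library size only (adjusted p = 0.543) and 0.42 without CoCl2 replicate 2 (adjusted p = 0.202), and it did not pass with DESeq2 on 9 or 6 libraries (adjusted p = 0.103 and 0.108). At the adjusted p alone, 4 genes were thus higher (40.2% of all tested genes) and 4 lower (43.2%) with CoCl2, and the same 4 higher (40.3%) and 4 lower genes (43.5%) had no overlap between the CoCl2 and OD libraries. MEP1A and SI did not differ at the adjusted p, with intervals of -0.20 to 0.13 for MEP1A and -0.89 to 0.23 for SI. Library size alone, however, put MEP1A at -0.58 (adjusted p = 2.19e-08) and SI at -0.87 (adjusted p = 0.00382).

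**Figure D3:**
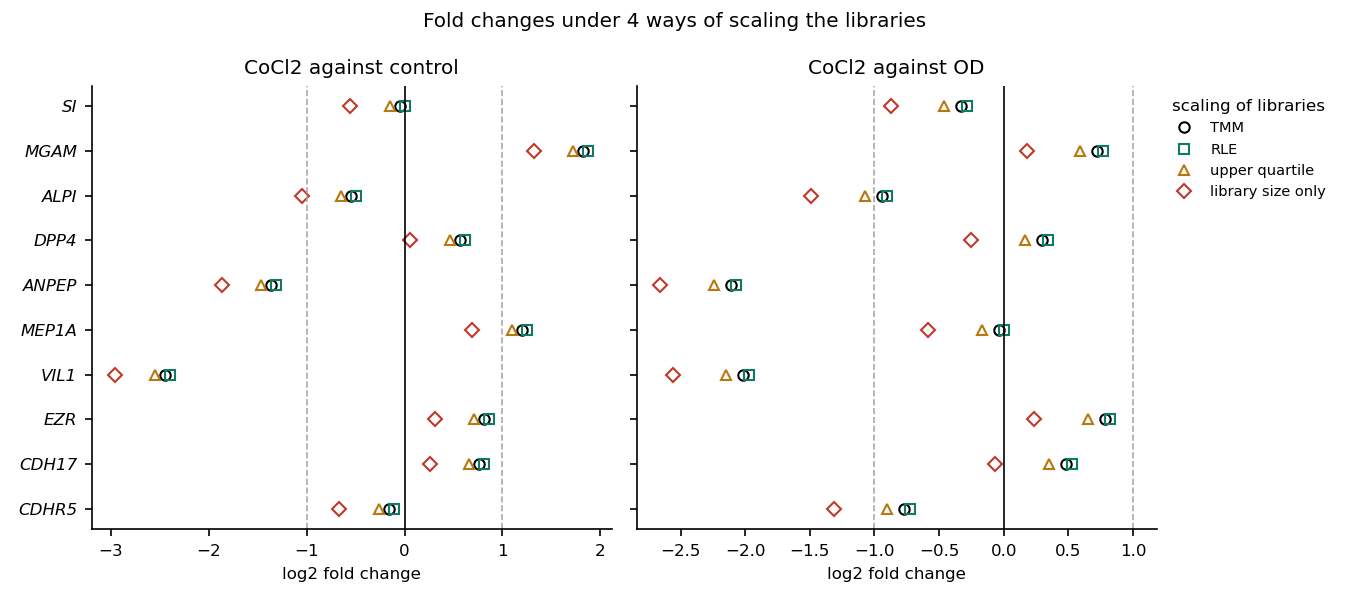
Log2 fold change of each gene (x axis) for CoCl2 against control and CoCl2 against OD with 4 ways of scaling the libraries, where dashed lines mark a log2 fold change of 1 in either direction. Library size only (diamonds) placed every gene lower than TMM (circles), and DPP4 and CDH17 crossed 0 in the comparison of CoCl2 with OD.

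The values with CoCl2 moved with the scaling. When library size alone set the scale, all tested genes had a median of -0.55 for CoCl2 against control and of -0.60 for CoCl2 against OD on the log2 scale, and the 10 genes had medians of -0.25 and -0.73. Under that scaling the upregulated share of all calls with CoCl2 was 23.9%, down from 46.0%, and the share higher with CoCl2 than with OD was 18.3%, down from 42.4%. Ratios of counts within a library do not depend on the scaling, and they are given as a description, without a test. For each 100 counts of EZR there were 99.8 ± 4.13 counts of VIL1 in control libraries (SD, n = 3), 10.4 ± 0.518 in CoCl2 libraries and 72.4 ± 1.22 in OD libraries, so the balance between the actin bundler and the membrane linker of the microvillus differed without overlap.

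ALPI against MEP1A showed the same kind of shift among the hydrolases, with 94.2 ± 19.2 counts of ALPI per 100 of MEP1A in control, 27.4 ± 2.50 in CoCl2 and 52.1 ± 1.98 in OD libraries. CDHR5 per 100 counts of MEP1A was 466 ± 68.5, 180 ± 3.78 and 300 ± 17.0. DPP4 and CDH17 kept a more even ratio, 74.1 ± 4.0 counts of DPP4 per 100 of CDH17 in control, 64.6 ± 3.4 in CoCl2 and 73.4 ± 0.420 in OD libraries. Of the summed counts of the 10 genes, VIL1 supplied 31.2% in control, 4.79% in CoCl2 and 22.8% in OD libraries, while EZR supplied 31.3%, 46.1% and 31.4% and CDH17 19.9%, 28.3% and 23.8%. The sum itself was 0.218%, 0.183% and 0.228% of the library counts.

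**Figure D4:**
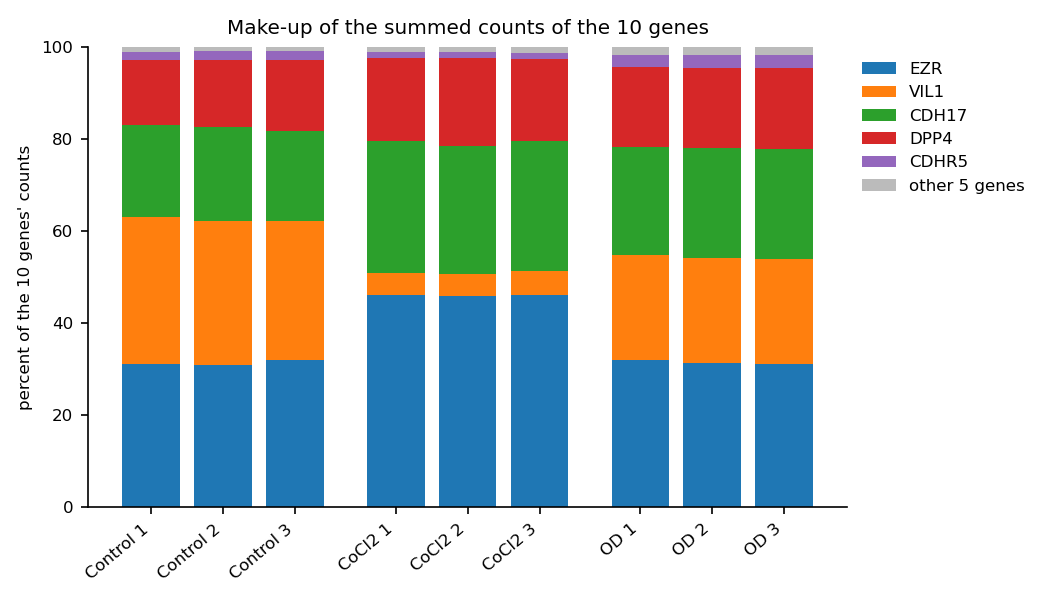
Percent of the summed counts of the 10 genes (y axis) that came from EZR, VIL1, CDH17, DPP4, CDHR5 and the other 5 genes in each of the 9 libraries (bars). VIL1 fills 30.3% to 31.9% of the control bars, 4.62% to 5.07% of the CoCl2 bars and 22.7% to 22.9% of the OD bars.

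Relatives of the 10 genes were read for the same libraries. VILL, a villin-like gene, was downregulated with CoCl2 from 17.0 ± 1.01 to 2.98 ± 0.759 CPM (log2 fold change -2.47, adjusted p = 6.79e-28), near the value of VIL1, and stood at 16.4 ± 1.12 with OD (adjusted p = 0.585). Radixin (RDX), a relative of ezrin, was lower with CoCl2 by a log2 fold change of -0.92 (adjusted p = 1.76e-29) while EZR was higher, and 100 counts of RDX stood against 208 ± 12.6, 693 ± 17.0 and 270 ± 11.8 counts of EZR in control, CoCl2 and OD cells. MSN, the remaining member of that family, had too few counts to be tested. MGAM2, the neighbour and paralog of MGAM, was downregulated with CoCl2 (-1.38, adjusted p = 9.05e-09) and stood at -0.67 with OD (adjusted p = 4.44e-04), opposite in sign to MGAM in both. The placental-type phosphatases ALPP and ALPG were upregulated with CoCl2, with log2 fold changes of 1.08 (adjusted p = 3.87e-18) and 1.64 (adjusted p = 9.57e-17), while ALPI was lower.

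Stretches of 75 bases, the read length, bear on how far such relatives could share reads. In the canonical transcripts 0 of the stretches of 8 of the 10 genes recurred in another gene, ALPI shared 0.0316% with ALPP, and MEP1A shared 1.49% with pseudogenes. ALPP and ALPG shared 18.8% and 20.6% with other genes, mostly with each other, and their values are uncertain. Only the strand of each transcript was compared, so the overlap of VIL1 with USP37 on the opposite strand is not counted here. Apart from VIL1, the 10 genes had at most 4.61% of their exonic bases in common with a gene on the opposite strand, CLEC5A in the case of MGAM.

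Companion lists of the same biology were described by the same counts. Of 17 other brush-border hydrolases, 8 passed the expression filter. With CoCl2, 5 were downregulated (23.4% of all tested genes), among them ENPEP, an aminopeptidase, at -2.04 and LCT, the lactase, at -1.55. The 2 upregulated genes (19.9%) were ALPG and ALPP, the placental-type phosphatases whose values are uncertain. Of the 5, ACE and XPNPEP2 had means of 0.420 and 0.266 CPM with CoCl2, under the filter cutoff of 0.547, and LCT was near it at 0.612. ACE and XPNPEP2 thus passed through other libraries, so a lower value with CoCl2 was favoured by the filter. The 8 had medians of -1.21 with CoCl2 and -0.14 with OD on the log2 scale, against medians of -0.049 and -0.010 over all tested genes. Over the 7 with a mean of at least 1 CPM, 4 were downregulated with CoCl2, and the medians were -1.04 and -0.017. With OD, ACE, the angiotensin-converting enzyme, and ALPG were upregulated (9.09% of all tested genes), at 1.80 and 1.27, and none was downregulated (4.16%). Between the agents 3 were lower with CoCl2 (23.8%), with ACE at -2.84, again favoured by the filter, and none was higher (17.5%).

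Of 24 other genes of the microvillus and of related actin structures, the latter including FSCN1, 20 were tested. With CoCl2, 8 of the 20 were downregulated (23.4% of all tested genes), VILL at -2.47 and the brush-border myosin MYO1A at -2.19 first. Upregulated were 3 of the 20 (19.9%), EPS8 at 2.01 and the bundling protein FSCN1 at 1.45 among them, and the median was -0.50. MYO7B, among the 8, had 0.188 CPM with CoCl2, under the filter cutoff, so a lower value was favoured by the filter. Over the 19 with a mean of at least 1 CPM, 7 were downregulated and the median was -0.48. With OD the list had 3 genes upregulated (9.09%), among them EPS8 at 1.27 and FSCN1 at 1.13, none downregulated (4.16%) and a median of 0.14. In the direct comparison 8 were lower with CoCl2 (23.8%), with ESPN, another actin bundler, at -3.03 and MYO1A at -2.43, and STX3 was higher at 1.20 (17.5%). MYO7B was again among the 8, and ESPN was near the cutoff with CoCl2, at 0.731 CPM.

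Of 20 other enterocyte markers, 15 were tested, but 5 of these (SLC5A1, SLC26A3, GUCA2B, CEACAM7 and LGALS4) had a control mean under the cutoff of the expression filter and passed through treated libraries, so a higher value there was favoured by the filter. The remaining 10 were the markers with a mean of at least 1 CPM over the 9 libraries. With OD, 5 of these 10 were upregulated (9.09% of all tested genes), GUCA2A (guanylin) at 2.15 and the fructose transporter SLC2A5 at 2.02 among them, none was downregulated (4.16%) and the median was 1.05, against 9 upregulated of 15 and a median of 1.46 with the 5 included. With CoCl2, 4 of the 10 were downregulated (23.4%), the fatty acid-binding FABP1 at -2.59 and KRT20 at -1.44 among them, none was upregulated (19.9%) and the median was -0.54. The 5 added 2 upregulated genes and moved that median to -0.38. Directly compared, 9 of the 10 were lower with CoCl2 (23.8%), with FABP1 at -2.99 and the peptide transporter SLC15A1 at -2.90, none was higher (17.5%), and the median was -2.13, or -1.90 over the 15.

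Of 13 transcription factors of the intestinal epithelium, 12 were tested. KLF4 (2.71) and KLF5 (2.11) were among 4 upregulated with CoCl2 (19.9% of all tested genes) and 2 were downregulated (23.4%), around a median of 0.10. Where a mean of at least 1 CPM was required, 9 factors remained, with 4 upregulated, 1 downregulated and a median of 0.41. With OD, KLF4 (2.28) and ELF3 (1.13) were upregulated (9.09%), none was downregulated (4.16%) and the median was 0.33. Between the agents, KLF5 (1.32) and PRDM1 (1.52) were higher with CoCl2 (17.5%) and 3 factors were lower (23.8%), with a median difference of -0.086. Over the 9 factors with a mean of at least 1 CPM that median was 0.42, and none of the 9 was called lower.

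**Figure D5:**
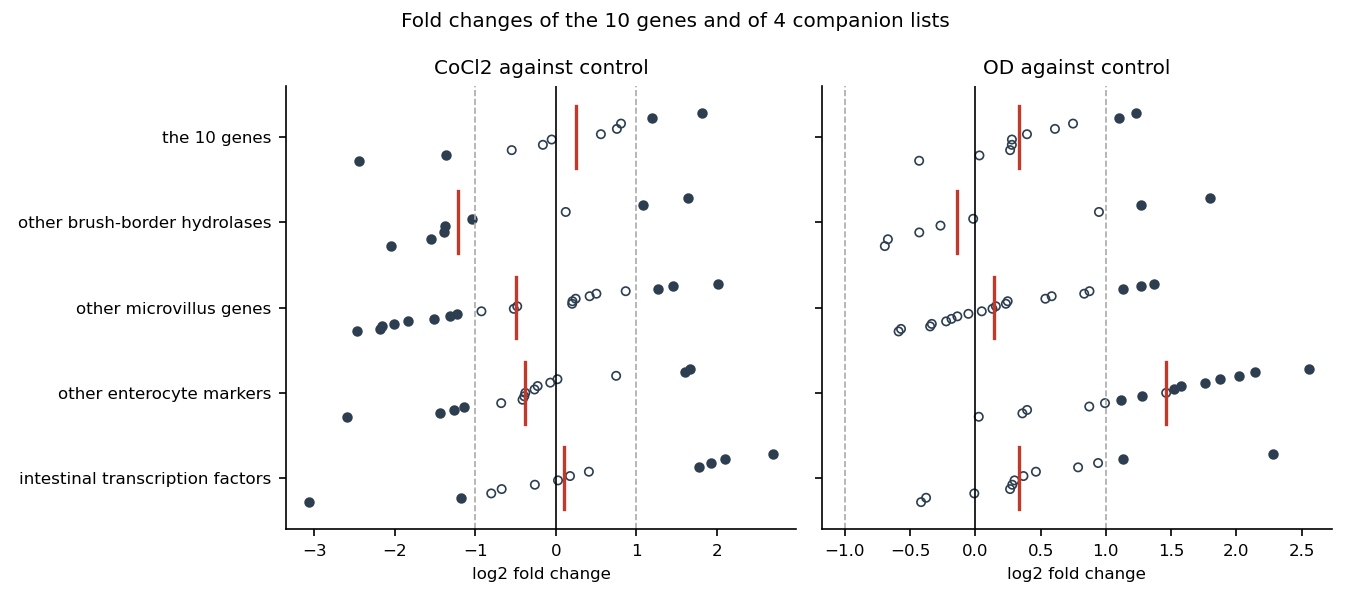
Log2 fold change (x axis) of the 10 genes and of the tested genes of 4 companion lists (points, filled where both thresholds were passed) with CoCl2 and OD against control, where red bars give the medians. The 15 other enterocyte markers center on 1.46 with OD and on -0.38 with CoCl2 (1.05 and -0.54 without the 5 that were under the filter in control cells), and the 10 genes on 0.34 and 0.26.

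For each of the 10, the gene outside the set with the most similar profile over the 9 libraries was found among 13417 genes whose mean level reached 1 CPM, by the Euclidean distance of log2 CPM centred on each gene's own mean. The nearest to VIL1 was NAA40 (distance 0.183), at 59.4 CPM in control, 11.6 in CoCl2 and 44 in OD libraries. CDH17 had the closest neighbour of all, APLP2 (0.0734), followed by EZR with SDF4 (0.0869) and DPP4 with HIP1R (0.107). For CDHR5, ALPI and MEP1A the nearest were GALNS (0.163), GPR137 (0.243) and BTN3A2 (0.259). The genes with few counts had distant neighbours, SI with ZFPL1 (0.558), ANPEP with ZNF395 (0.678) and MGAM with ZNF490 (0.887).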

How the data were processed

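Messenger RNA of uCaco-2 cells was sequenced in 9 libraries, 3 per condition, grouped by their titles in the labels. The authors used FastQC 0.11.9 for read quality, cutadapt 2.10 for adapters and STAR 2.7.5b to map the single-end reads of 75 bases on GRCh38.p13, and counted reads per gene with a GENCODE annotation. The deposited table holds raw read counts per gene symbol, not normalized. It had 0 unused sample columns. The library kit was stranded. The counting tool, its strand setting and its treatment of reads that fit several genes are not given in the sources used here. The authors' own test was DESeq2.

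The 10 genes and the companion lists were chosen with earlier results of these data known. TMM factors were computed from the counts with edgeR 4.0.16 (R 4.3.3), which kept 15944 symbols by its expression filter (about 10 counts, or 0.547 CPM, in 3 libraries) and fitted 1 robust quasi-likelihood model over the 9 libraries, with Benjamini-Hochberg adjustment over all tested genes. Of the 60591 symbols, 24486 had no count. Genes were called up- or downregulated where the adjusted p was under 0.05 and the log2 fold change beyond 1 in either direction, the authors' thresholds. The steps were tested on simulated data. An exact permutation test of 3 libraries against 3 cannot go below 0.1 and was not used for calls. Replicates of a condition differed beyond sampling noise (chi-square per degree of freedom 1.74 to 3.05), so all were kept. Standard errors on the log2 scale ran from 0.039 for EZR to 0.327 for MGAM with CoCl2.

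Named were all 10 genes, their paralogs and overlapping genes, the nearest profile of each, and from each list up to 2 called rises and 2 called falls per comparison, the largest at a mean of at least 1 CPM, with 1 exception that is not reported here. The alternatives were RLE factors, library size only, no count filter, edgeR or DESeq2 1.42.0 on 6 or 9 libraries, the replicate number as a block, each library left out, glmTreat, and the adjusted p alone. Upper-quartile factors, and the medians of companion lists over genes whose mean reached 1 CPM, were added after seeing the data. Positions came from GENCODE release 44 and promoters from RefSeq, and the sequence of the remaining 4 promoters (VIL1, MEP1A, CDH17, CDHR5) was not used here.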

Additional observations from a re-analysis of the deposited data

How the results depend on the processing

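Counts set how firmly SI, MGAM and ANPEP can be read, and the scaling sets EZR, CDH17 and DPP4 with CoCl2. With CoCl2 against control, library size only gave 1 gene upregulated in place of 2 (MGAM). It gave 3 downregulated in place of 2 (ALPI, ANPEP and VIL1). With glmTreat 1 in place of 2 was downregulated (VIL1), and the adjusted p alone gave 5 higher and 4 lower. With OD, 1 in place of 2 was upregulated (MEP1A) with DESeq2 on 6 libraries, with glmTreat and without control replicate 2, so that leaving out 1 library gave 1 to 2, and the adjusted p alone gave 7 higher and 1 lower. Between CoCl2 and OD, library size only gave 4 lower in place of 2 (ALPI, ANPEP, CDHR5 and VIL1), and the adjusted p alone gave 4 higher and 4 lower. Upper-quartile factors, no count filter and leaving out CoCl2 replicate 3 each gave 3 lower, with ALPI added. The sign turned for DPP4 (-0.25) and CDH17 (-0.065) between CoCl2 and OD with library size only. It also turned for values near 0 that did not pass the adjusted p in the main fit. SI with CoCl2 ran from -0.37 to 0.14 with 1 library left out. It was above 0 without control replicate 1, CoCl2 replicate 1 or CoCl2 replicate 3. MEP1A between the agents was 0.0055 with RLE factors and -0.11 to 0.0015 with 1 library left out, above 0 without CoCl2 replicate 1 or OD replicate 1. With library size only it was -0.58 and passed (adjusted p = 2.19e-08). Apart from library size only, whose construction leaves out the composition factor, the cause was not tested. Of the values recomputed under alternatives, 493 kept their direction and side of the threshold. Libraries with the same replicate number did not deviate together (correlations of -0.003 to 0.031), and with the replicate block 2 genes were upregulated and 2 downregulated with CoCl2, 2 were upregulated with OD and 2 were lower with CoCl2 than with OD, the same genes as without it.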
